A study of Mus musculus with 6 samples.

Results

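The heat-shock chaperone genes were compared between samples sorted as regulatory T cells (Tregs) of the skin and of its draining lymph nodes (SDLNs) in neonatal mice. The 10 genes were chosen by name among the 49315 genes of the count table, so as to hold the stress-inducible and the constitutive cytosolic chaperones side by side with the mitochondrial chaperonins and the chaperone of the endoplasmic reticulum (ER). Hspa1a, Hspa1b, Dnajb1, Hsph1 and Hsp90aa1 were taken as the 5 inducible members. Hspa8 and Hsp90ab1 were taken as the 2 constitutive cytosolic members, and Hspa5, Hspd1 and Hspe1 as the 3 organelle members. All 10 were found in the table and all 10 passed the filter on low counts, although Hspa1a and Hspa1b were carried through it by the skin libraries alone. On GRCm38 (GENCODE M21), the inducible Dnajb1 lies at chr8:83608193-83612653, Hsph1 at chr5:149614287-149636376 and Hsp90aa1 at chr12:110690605-110702728. Hspa8 lies at chr9:40800984-40810087, Hsp90ab1 at chr17:45567775-45573271, Hspa5 at chr2:34771970-34777547, Hspd1 at chr1:55077835-55088243 and Hspe1 at chr1:55088132-55091307, and counts were taken over their exons.

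The series held 3 skin Treg samples and 3 SDLN Treg samples, all from Foxp3-GFP mice with no treatment in the labels, in which a green fluorescent protein marks cells that express the Treg factor Foxp3, and all given the same batch number. The mice were 9 days old (P9), cells of several mice were pooled into each sample, and live CD45+ CD4+ Foxp3-EGFP+ cells were sorted after magnetic enrichment for CD45. The methods state that both tissues were digested and refer to a protocol in which skin is digested with enzymes in a warm shaking incubator, while nodes for flow cytometry are mashed through a filter. Which of these the nodes of the sequenced samples went through is not spelled out, so whether handling differed along with tissue cannot be told. GEO's tissue field reads skin for the lymph node samples too, and the samples were assigned from their titles. Values of the 3 libraries of a tissue are given throughout in the order A, B, C, the letters of the columns.

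Heat-shock proteins bind unfolded or partly folded proteins and keep them from aggregating. Cells make the inducible forms when proteins unfold, through heat shock factor 1 (HSF1), which binds repeated units of GAA and TTC, called heat shock elements, in front of its target genes. HSP70 proteins work in cycles that HSP40 proteins such as Dnajb1 start and HSP110 proteins such as Hsph1 reset, while HSP90 proteins finish and hold signalling proteins such as kinases and steroid receptors. Hspa5, also called BiP, is the HSP70 of the ER and is induced by the unfolded protein response rather than by HSF1, and Hspd1 and Hspe1 form the folding chamber of mitochondria.

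The libraries were of unequal depth and content, which bears on every comparison. The skin libraries held 3748669 to 11741784 counts and the SDLN libraries 47243498 to 116158706, so that the floor of 3 counts lay at 0.255 to 0.80 CPM (counts scaled to a library total of 1000000) in skin and at 0.0258 to 0.0635 CPM in SDLNs. Many genes that were well covered in SDLNs were missing from the skin libraries. Of the 1282 genes at a mean of 100 to 200 CPM in the SDLN libraries, 37.1%, 73.6% and 67.1% had more than 3 counts in the skin libraries A, B and C. Foxp3 had 0, 330 and 1 counts in skin against 1788 to 12208 in the SDLN libraries, and Cd4 had 0, 1861 and 2 counts in skin, so these 2 markers of the sort were nearly absent from 2 of the 3 skin libraries. Some other T cell and Treg markers were present there. Ctla4 had 1181, 1322 and 796 CPM in skin against 353 to 583 in SDLNs and was called higher (edgeR adjusted p = 0.0447). Il2ra had 2232, 1137 and 534 CPM against 748 to 1330, and Cd2 had 1338 to 1593 CPM against 1298 to 1925. Cd3e, Cd3d and Lck were lower in skin, though not called. Cd3e had 0, 150 and 293 CPM against 578 to 1063, Cd3d 198 to 355 against 677 to 926, and Lck 291 to 1042 against 1606 to 3106. In skin library A, Cd5 had 0 counts and Lat 1. The median log2 fold change of the 14 T cell and Treg markers was -0.81. The markers thus went both with and against the label of those libraries, and results below are given for the skin and SDLN libraries rather than for Tregs. Of all genes tested, 1.04% were called higher in skin and 45.3% lower, and the calls of marker lists below stand beside these shares. The 17 macrophage and dendritic cell markers summed to 33339 to 56899 CPM in skin and to 431 to 772 CPM in SDLNs, and 14 of the 16 tested were called higher in skin. Itgam had 0 counts in every skin library and was called lower, having entered the test through SDLNs alone. Cd14 and Itgax had 0 counts in skin libraries A and C. The 14 T cell and Treg markers summed to 7037 to 10523 CPM in skin and to 12423 to 13269 CPM in SDLNs, with 1 of the 14 called higher and 0 lower. Immediate-early genes, which respond within minutes to tissue handling and to activation, summed to 11177 to 34033 CPM in skin and to 2119 to 2445 CPM in SDLNs (16 genes, 8 called higher and 1 lower). Keratinocyte markers summed to 0 to 50.8 CPM in skin and to 38.4 to 42.8 CPM in SDLNs, with Krt5, Krt14 and Krt15 at 0 in every library, and fibroblast markers to 0 to 90.7 and 1.5 to 7.99 CPM, with Pdgfra and Lum at 0 in every library. The part of these other cells and of the immediate-early genes in the results below was not tested, and in bulk samples fewer cells of a type and less RNA per cell cannot be told apart.

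Hspa1a and Hspa1b are neighbouring copies of 1 gene, and the bases in front of them are shown because the results turn on this pair. Both lie on the minus strand of chromosome 17, with the gene bodies at chr17:34969190-34972156 and chr17:34956436-34959238 (GRCm38). The 250 bases before each RefSeq start site (GRCm38.p6, chr17:34972157-34972406 and chr17:34959239-34959488) are written 5′ to 3′, with the paired unit of the heat shock element in capitals.
Hspa1a: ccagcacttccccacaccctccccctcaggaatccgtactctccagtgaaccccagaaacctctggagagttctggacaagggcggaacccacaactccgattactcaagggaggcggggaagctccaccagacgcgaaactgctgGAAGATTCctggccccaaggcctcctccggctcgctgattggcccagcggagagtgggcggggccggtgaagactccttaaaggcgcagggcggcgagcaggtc
Hspa1b: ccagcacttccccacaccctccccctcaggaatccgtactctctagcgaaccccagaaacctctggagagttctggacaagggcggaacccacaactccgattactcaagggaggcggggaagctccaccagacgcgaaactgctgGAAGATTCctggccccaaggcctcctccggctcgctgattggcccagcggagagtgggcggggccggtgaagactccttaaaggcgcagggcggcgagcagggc

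Over the whole RefSeq window, which runs from 250 bases before to 50 bases after the start site, 296 of 300 bases were identical between the 2 copies. The 4 differences were C44T, T47C, T249G and C276T, with the base of Hspa1a first, the position counted from 1 at the 5′ end of the window, and the base of Hspa1b last. Each copy held 1 match to the paired unit, searched on both strands as GAANNTTC or TTCNNGAA, at bases -104 to -97 from the start site.

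RefSeq windows were found for 7 of the 10 members, not for Hspa8, Hsp90aa1 and Hsp90ab1. The longer or different exact matches of Hspe1, Hsph1 and Hspa5 are shown beside that of the Hspa1a pair for comparison. Matches to 2, 3 and 4 units overlap, since a longer run holds the shorter ones. A run of 4 units (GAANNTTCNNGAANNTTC or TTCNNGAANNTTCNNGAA) lay at bases -89 to -72 from the start of the chaperonin gene Hspe1, inside the first part of its partner Hspd1, which is read the other way.
Hspe1: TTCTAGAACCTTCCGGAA
Hsph1: TTCTGGAAAGTTC
Hspa5: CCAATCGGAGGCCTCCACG

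The Hspe1 run is read on the strand of Hspe1, and the same 18 bases stood on the other strand in 1 of the 2 windows of Hspd1. The Hsph1 run of 3 units (GAANNTTCNNGAA or TTCNNGAANNTTC) lay after the start site, at bases 36 to 48 of 1 window and 15 to 27 of the other, and each Hsph1 window held a separate paired unit as well. Hspa5 held no paired unit and 1 ER stress element, the site of the unfolded protein response (searched as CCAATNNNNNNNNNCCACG or its reverse complement), at bases -65 to -47. The 2 windows of Dnajb1 held neither. Of all 32851 RefSeq windows, 15.1% held a paired unit, 0.603% a run of 3 units, 0.024% a run of 4 units and 0.119% the ER stress element, so the paired unit in front of Hspa1a and Hspa1b is a common match and the runs in Hsph1, Hspd1 and Hspe1 are rare ones. Only exact matches were counted, so elements with imperfect units were not searched for, in front of Hspa1a and Hspa1b or elsewhere. How long the elements of the members are is therefore not settled by these matches. A match is a description of letters and not of binding.

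**Figure D1:**
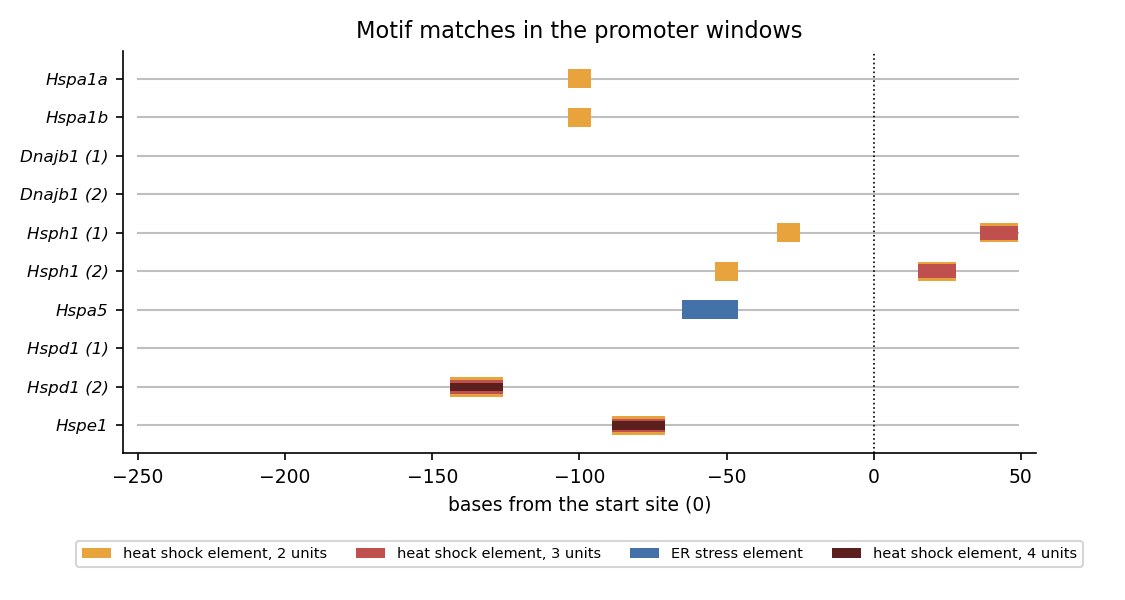
Exact motif matches in the 10 RefSeq windows of 7 members. The x axis gives the distance in bases from the start site, grey lines are the 300-base windows, numbers in brackets tell windows of 1 gene apart, and coloured blocks mark runs of 2, 3 or 4 heat shock units and the ER stress element. The 4-unit run lies in Hspe1 and in 1 window of Hspd1, and Hspa5 holds the only ER stress element shown.

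Across the 10 members, Hspa1a and Hspa1b were called higher in the skin libraries and none was called lower (edgeR's quasi-likelihood test, Benjamini-Hochberg adjusted p under 0.05 over all 13572 genes tested). Both passed the filter through the skin libraries alone, where they are high, so their calls add no support beyond the counts themselves. Of all genes tested, 1.04% were called higher and 45.3% lower. Every skin library lay above every SDLN library in CPM for 3 of the 10 members, Hspa1a, Hspa1b and Hspa8, against 2.39% of all genes tested, and every skin library lay below for 0 members against 53.6%. Of these 3, Hspa1a and Hspa1b are again the genes that entered through skin alone. The 8 members that were not called had unadjusted p between 0.108 and 0.995, so none of them passed 0.05 before adjustment either, and DESeq2 called 4 members higher and 0 lower. The median log2 fold change of the 10 members was 0.31, against -2.21 over all genes tested and 0.28 over the 1623 genes with more than 3 counts in all 6 libraries.

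Hspa1a, the main stress-inducible HSP70, was among the abundant transcripts of the skin libraries and close to absent from the SDLN libraries. It had 5812, 13291 and 4030 counts in skin, or 1550, 1132 and 446 CPM, and 1, 0 and 0 counts in SDLNs. By count it ranked 73rd, 96th and 419th of all genes in the 3 skin libraries. All 3 skin libraries were high, none was near the floor, and the groups did not overlap. The fitted log2 fold change was 17.16 (SE 1.51, edgeR adjusted p = 0.00322), a value that depends on the prior count because 2 of the SDLN libraries were at 0. It was 14.80 with all libraries drawn down to the smallest total and 16.27 with limma voom. Over the summed libraries the level in skin was 222810 times that in SDLNs, with an exact 95% interval from 39985 to 8800700 that covers counting error only and rests on the 1 SDLN count. Hspa1a entered the test only because it was high in skin, and a filter of 10 counts in every library removed it. Neither the main call with its p-value nor the call in the other settings therefore adds support.

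Hspa1b, the neighbouring copy that encodes nearly the same protein, was called higher as well but at a far lower level. It had 8, 118 and 12 counts in skin (2.13, 10.1 and 1.33 CPM) and 1, 1 and 0 counts in the SDLN libraries. Skin library B stood above the other two skin libraries, and each skin library was above the SDLN libraries. The log2 fold change was 8.71 (SE 1.28, edgeR adjusted p = 0.00372), and the ratio over the summed libraries was 665 (exact 95% interval 181 to 5542, counting error only, on 2 SDLN counts). Library B held 118 of the 138 skin counts, and without it the log2 fold change was 7.21 (adjusted p = 0.00369). Like Hspa1a, it passed the filter through the skin libraries alone, so neither of these p-values adds support.

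The split of reads between the copies was lopsided in each skin library. Hspa1b took 0.137% of the reads of the pair in skin library A (Wilson 95% interval 0.0697% to 0.271%), 0.880% in B (0.735% to 1.05%) and 0.297% in C (0.170% to 0.518%). These intervals cover counting error only and treat each read as independent. On that footing the interval of B does not overlap those of A and C. The copies share sequence, so their counts are uncertain as a split: 46.0% of the 150-base stretches of Hspa1a transcripts and 40.5% of those of Hspa1b also occurred in another annotated gene, mostly in each other. Reads from such stretches match more than 1 place, and how they were counted is not given in the sources used here beyond that they were unique counts. The stretches that each copy shares with no other gene numbered 1523 for Hspa1a and 1580 for Hspa1b. How reads lie along the transcripts was not examined, so the part of shared sequence in the split was not tested. With the counts of both summed as 1 gene, the log2 fold change was 16.05 (edgeR adjusted p = 0.00322). The summed gene also entered the test through skin alone, so this p-value adds no support.

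Dnajb1, the HSP40 partner that HSF1 induces together with the inducible HSP70, did not separate the tissues. Its level was 559, 87.1 and 519 CPM in skin and 197, 199 and 330 CPM in SDLNs. Skin libraries A and C stood above all SDLN libraries and skin library B below them. The log2 fold change was 0.63 (SE 0.83, 95% interval -1.44 to 2.69, edgeR adjusted p = 0.727), an interval that holds changes of more than 1 log2 unit in either direction. In skin library B, where Hspa1a reached 1132 CPM, Dnajb1 was thus at its lowest level of all 6 libraries.

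Hsph1, the HSP110 that exchanges the nucleotide of HSP70, was found in 1 skin library only. It had 0 counts in skin libraries A and B and 1887 counts (209 CPM) in C, against 139, 119 and 134 CPM in SDLNs. Skin library C was the highest of the 6 libraries and the other two skin libraries were at 0, with floors of 0.80 and 0.255 CPM. The log2 fold change of -0.58 (SE 2.96, edgeR adjusted p = 0.955) rested on that library, and without it Hsph1 was called lower (log2 fold change -15.69, adjusted p = 0.00636). With 0 counts in both remaining skin libraries it entered that test through the SDLN libraries alone, so this call adds no support. With limma voom it was -4.85 (adjusted p = 0.176). Genes at this SDLN level were often missing from skin libraries, as the shares given for 100 to 200 CPM show.

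Hsp90aa1, the inducible HSP90, had 608, 556 and 239 CPM in skin and 244, 212 and 239 CPM in SDLNs. Skin libraries A and B were above the SDLN libraries while skin library C lay among them. After scaling by edgeR's trimmed mean of M values (TMM), the skin libraries (305 to 588 CPM) were all above the SDLN libraries (200 to 259 CPM). The log2 fold change was 0.90 (SE 0.52, 95% interval -0.37 to 2.18, edgeR adjusted p = 0.260), and DESeq2 was the only alternative that called it (1.03, adjusted p = 0.0166). Of its 150-base stretches, 28.5% also occurred in 3 other annotated genes, so part of its reads may have been placed elsewhere.

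Hspa8, the constitutive HSP70 of every cell, was the most abundant member in skin and showed the least spread there. It had 3109, 2628 and 3388 CPM in skin and 2062, 1846 and 2196 CPM in SDLNs, and ranked 20th to 23rd of all genes in skin and 24th to 32nd in SDLNs. Every skin library was above every SDLN library on this scale, but with TMM scaling skin library A fell to 2203 CPM, below the 2376 CPM of SDLN library C. The log2 fold change was 0.58 (SE 0.30, 95% interval -0.17 to 1.33, edgeR adjusted p = 0.215). It was called higher in alternatives that scaled by DESeq2 size factors (0.66, adjusted p = 0.0455), by library totals (0.58, adjusted p = 0.0358) or tested with DESeq2 (0.66, adjusted p = 0.00633), and its log2 fold change was 0.17 without skin library C. Hspa8 shared 23.0% of its stretches with 5 other annotated genes.

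Hsp90ab1, the constitutive HSP90, was about level between tissues and varied within both. It had 1175, 1139 and 2543 CPM in skin and 1436, 1305 and 2597 CPM in SDLNs. In each tissue library C was far above the other two, and the ranges overlapped. The log2 fold change was -0.06 (SE 0.62, 95% interval -1.59 to 1.47, edgeR adjusted p = 0.981), and its sign turned in 6 alternatives.

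Hspa5, the ER chaperone BiP, had 1975, 936 and 1309 CPM in skin and 1225, 1263 and 1405 CPM in SDLNs. The skin libraries lay on both sides of the SDLN range. The log2 fold change was 0.035 (SE 0.29, 95% interval -0.68 to 0.75, edgeR adjusted p = 0.974), the narrowest interval among the members, and its sign turned in 7 alternatives.

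The mitochondrial pair was likewise not called. Hspd1, the HSP60 of the folding chamber, had 0, 422 and 326 CPM in skin and 322, 354 and 273 CPM in SDLNs, so that skin libraries B and C were within or above the SDLN range and skin library A had no read. Its log2 fold change was -0.15 (SE 2.06, edgeR adjusted p = 0.984), and -3.14 with limma voom (adjusted p = 0.326). Hspe1, the HSP10 lid of the chamber, had 113, 142 and 47.4 CPM in skin and 111, 94.5 and 82.5 CPM in SDLNs, with skin library C below all others and a log2 fold change of -0.0071 (SE 1.03, edgeR adjusted p = 0.998). In skin library A, Hspe1 had 425 counts and Hspd1, which starts from the same stretch on the other strand, had 0. The 2 genes overlap by 112 bases on opposite strands, and whether strand was used in counting is not given in the sources used here.

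**Figure D2:**
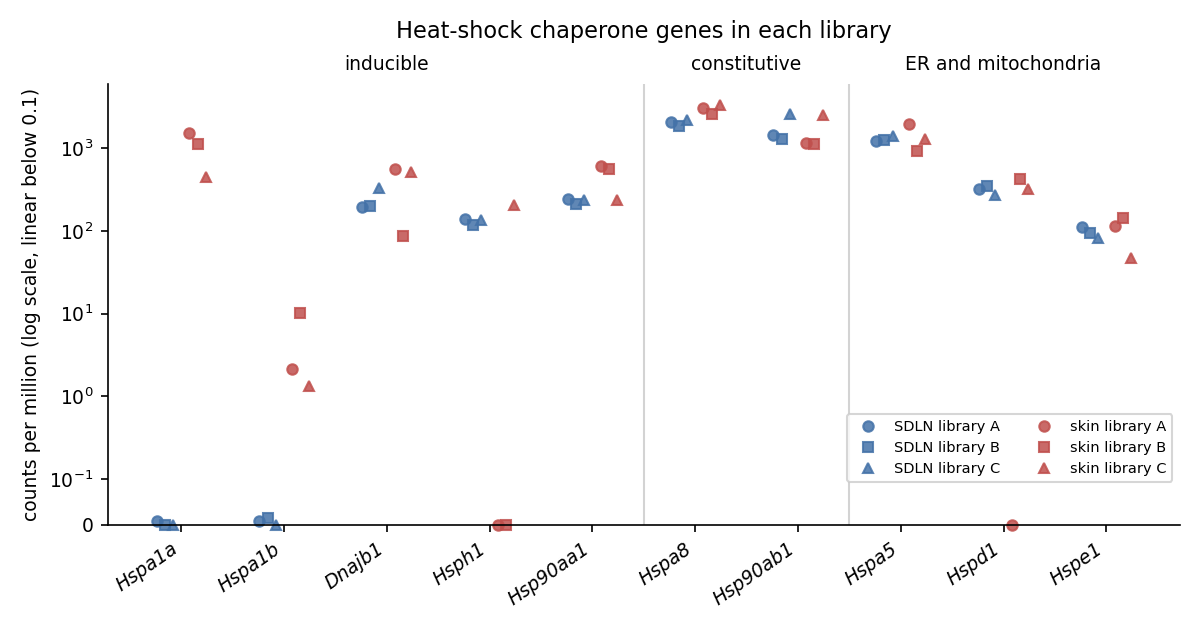
CPM of the 10 members in each library, on a log axis that is linear below 0.1. Each symbol is 1 library (red, skin; blue, SDLN; circle, square and triangle for A, B and C), and grey lines part the inducible, constitutive and organelle members. Hspa1a and Hspa1b separate the tissues, and Hsph1 in 2 skin libraries and Hspd1 in 1 lie at 0 while the other values overlap or, for Hspa8, lie close together.

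**Figure D3:**
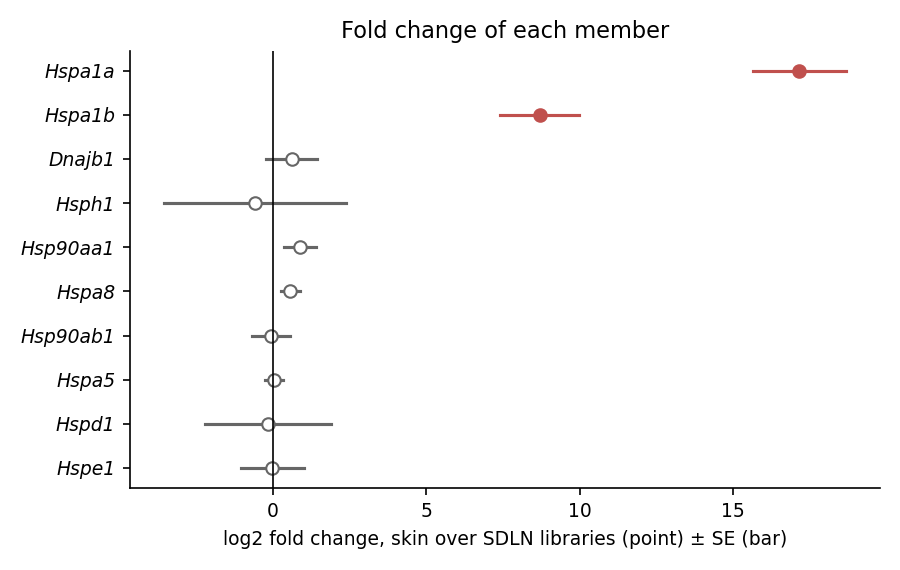
Log2 fold change of each member, skin over SDLN libraries (point), with its standard error (bar), from 3 libraries per tissue. Filled red points are the 2 members called higher, at 17.16 and 8.71, and open grey points the 8 that were not called, the widest bars being those of Hsph1 and Hspd1.

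The members were ordered by level per exon length, in CPM per kilobase of merged exons (RPKM, mean ± SD, n = 3). In the SDLN libraries it ran from Hsp90ab1 (593 ± 237) and Hspa8 (473 ± 41.0) to Hspa5 (307 ± 22.4), Hspd1 (120 ± 15.3), Dnajb1 (75.5 ± 23.8), Hspe1 (65.2 ± 9.83), Hsp90aa1 (58.9 ± 4.33) and Hsph1 (18.0 ± 1.43), with Hspa1b and Hspa1a last at no more than 0.0049 RPKM in any library. Neighbours whose ranges overlapped were Hsp90ab1 with Hspa8, Dnajb1 with Hspe1, Hspe1 with Hsp90aa1, and Hspa1b with Hspa1a. In the skin libraries it ran from Hspa8 (707 ± 89.4), Hsp90ab1 (540 ± 267), Hspa1a (351 ± 188) and Hspa5 (333 ± 125) to Dnajb1 (121 ± 81.7), Hsp90aa1 (119 ± 50.9), Hspd1 (94.4 ± 83.7) and Hspe1 (68.5 ± 32.9), and last Hsph1 (9.58 ± 16.6) and Hspa1b (1.61 ± 1.72). Neighbouring ranges overlapped there too, except between Hspa5 and Dnajb1 and between Hspe1 and Hsph1. By its mean Hspa1a followed Hspa8 and Hsp90ab1 in skin and came last in SDLNs, but its skin range (150 to 523) also reached into those of Dnajb1 (27.2 to 175), Hsp90aa1 (60.7 to 155) and Hspd1 (0 to 160). Skin libraries differed among themselves more than SDLN libraries did: the median coefficient of variation of the members was 51.5% in skin and 13.9% in SDLNs, beside 58.7% and 22.4% for genes with more than 3 counts in every skin library.

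Summed by group, the inducible members were higher in every skin library than in every SDLN library. They came to 2720, 1786 and 1414 CPM in skin and to 579, 530 and 703 CPM in SDLNs (1973 ± 673 and 604 ± 89.3, mean ± SD, n = 3). Without Hspa1a and Hspa1b, the other 3 inducible members summed to 1167, 644 and 966 CPM in skin and to 579, 530 and 703 CPM in SDLNs, and the groups overlapped. The separation rested on Hspa1a, since Hspa1b added no more than 10.1 CPM to any sum. The constitutive members summed to 4284, 3767 and 5931 CPM in skin and to 3498, 3152 and 4793 CPM in SDLNs, and the organelle members to 2089, 1500 and 1682 CPM in skin and to 1658, 1711 and 1761 CPM in SDLNs, both with overlap.

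**Figure D4:**
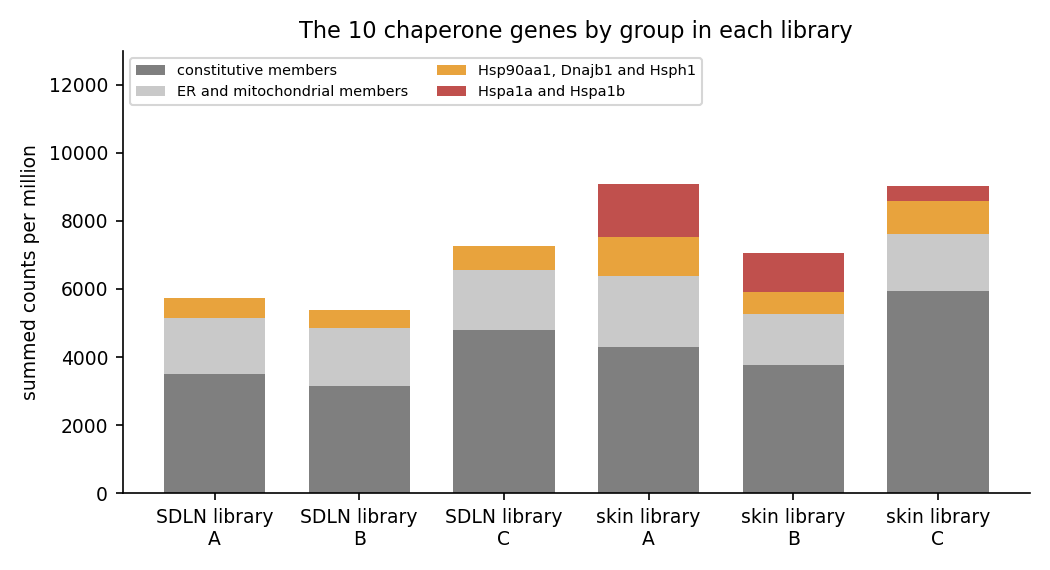
Summed CPM of the members in each library, stacked as constitutive (dark grey), organelle (light grey), the 3 inducible members Hsp90aa1, Dnajb1 and Hsph1 (orange), and Hspa1a with Hspa1b (red). The red part is present in the 3 skin libraries and too small to see in the 3 SDLN libraries.

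The inducible group was set against the constitutive group within each library, so that the library total cancels. It came to 63.5%, 47.4% and 23.8% of the constitutive group in skin and to 16.6%, 16.8% and 14.7% in SDLNs, with no test because the value is a score over chosen members. Without Hspa1a and Hspa1b the values were 27.2%, 17.1% and 16.3% in skin, of which B and C lay close to the SDLN values.

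The same was done for 2 pairs of paralogs, each an inducible gene over its constitutive relative. Hspa1a plus Hspa1b came to 49.9%, 43.5% and 13.2% of the Hspa8 reads in skin, and to 0.000835%, 0.000744% and 0% in SDLNs. The mean log2 ratio was 15.18 higher in skin (-1.71 ± 1.05 against -16.89 ± 0.67, SD, n = 3, 0.5 count added), with a two-sided exact permutation p of 0.10 (0.20 adjusted over the 2 ratios), the smallest that 3 against 3 libraries can give. Hspa1a and Hspa1b had at most 1 count each in any SDLN library, so the SDLN mean and SD and the size of the difference depend on the added count. The difference was 16.19 with 0.1 and 14.62 with 1 count added. With all libraries drawn down to the smallest total it was 12.16. Hsp90aa1 came to 51.7%, 48.8% and 9.38% of Hsp90ab1 in skin and to 17.0%, 16.3% and 9.21% in SDLNs. Libraries A and B were higher in skin than in SDLNs while the 2 libraries lettered C had nearly the same ratio, and the mean log2 difference of 1.07 did not separate the groups (exact permutation p = 0.30, adjusted 0.30). It was 1.88 without skin library C, 0.65 without skin library A and 0.69 without skin library B.

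**Figure D5:**
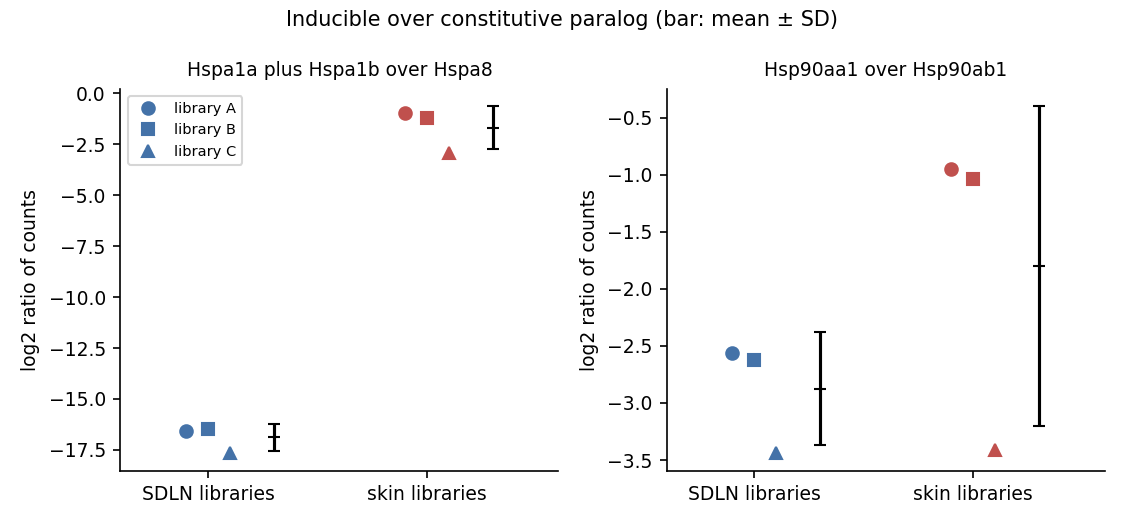
Log2 ratio of counts of the inducible over the constitutive paralog in each library, with Hspa1a plus Hspa1b over Hspa8 on the left and Hsp90aa1 over Hsp90ab1 on the right (different axes). Symbols are libraries A, B and C, and black bars give the mean ± SD of 3 libraries. The HSP70 ratio parts the tissues, and the HSP90 ratio overlaps because skin library C lies with the SDLN libraries.

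The rest of the chaperone network was read from 7 lists of 73 companion genes, of which 70 were tested. In it, 2 genes (2.86% of those tested) were called higher in skin and 10 (14.3%) lower, beside 1.04% and 45.3% of all genes tested, and the median log2 fold change was -0.60. Of the 10 called lower, 8 had no more than 3 counts in any skin library and the other two no more than 5, so all 10 passed the filter through the SDLN libraries alone. With at least 10 counts required in every library, 0 companions were called lower, and the p-values given below for genes called lower rest on that entry and add no support. Of the 73 companions, 20 had more than 3 counts in all 3 skin libraries.

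Of 6 genes for heat shock factors and small heat-shock proteins, 4 were tested, 0 called higher and 2 (50%) lower, near the 45.3% of all genes. Hsf1, the factor itself, had 0, 0 and 131 CPM in skin and 78.8 to 82.5 CPM in SDLNs (log2 fold change -0.56, SE 2.96, edgeR adjusted p = 0.957), with the highest of the 6 values in skin library C, as for Hsph1. Without skin library C it was called lower (-15.00, adjusted p = 0.00573), again with both remaining skin libraries at 0 and entry through SDLNs alone. Hsf2, a related factor outside the naming rule and added after its values were seen, had 0, 71.5 and 24.4 CPM in skin and 8.94 to 11.9 CPM in SDLNs and was not called (log2 fold change 1.73, SE 1.98, edgeR adjusted p = 0.662). The small heat-shock genes Hspb6 and Hspb1 were at 0 in every skin library and at 2.05 to 3.90 and 0.938 to 1.52 CPM in SDLNs, and both were called lower (edgeR adjusted p = 0.00405 and 0.00580), although the SDLN level of Hspb1 lies barely above the 0.80 CPM floor of skin library A.

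Among 11 HSF1-responsive co-chaperones, 1 was called higher and 2 lower. Dnaja1, an HSP40 that works with Hspa8, had 698, 915 and 583 CPM in skin and 270, 291 and 197 CPM in SDLNs, without overlap. Its log2 fold change was 1.53 (SE 0.45, edgeR adjusted p = 0.0341), a call that was lost in several alternatives, among them leaving out any library but skin library A (1.27 to 1.61, adjusted p 0.0768 to 0.163 where lost). Dnajb4 was at 0 in all 3 skin libraries and at 7.20 to 12.6 CPM in SDLNs, and Chordc1, an HSP90 co-chaperone, had 0, 5 and 0 counts in skin and 140 to 185 CPM in SDLNs. Both, entered through SDLNs, were called lower (edgeR adjusted p = 0.00322 and 0.0189), Chordc1 not without any 1 of the SDLN libraries (adjusted p 0.0618 to 0.0742). Ubb, a polyubiquitin gene and the most abundant of the list, had 4856 to 13939 CPM in skin and 2335 to 7728 CPM in SDLNs and was not called (log2 fold change 0.91, SE 0.78, adjusted p = 0.506).

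Of the list of other HSP70 and HSP40 genes and their cofactors, 11 of 12 were tested, with 0 called higher and 3 lower. Hspa2, Hspa13 and Stub1, the last a ubiquitin ligase that acts on chaperone clients, had at most 3 counts in any skin library, and SDLN levels of 5.45 to 8.59, 10.7 to 27.6 and 68.3 to 97.6 CPM. St13, a cofactor of Hspa8, had 0, 506 and 1067 CPM in skin and 376 to 681 CPM in SDLNs and was not called (log2 fold change 0.11, SE 2.15). The HSP90 co-chaperones (5 tested) and the subunits of the cytosolic chaperonin TRiC and of prefoldin (14 tested) held 0 calls in either direction. Ptges3, the p23 of HSP90, had 160, 1295 and 962 CPM in skin and 298 to 717 CPM in SDLNs. Cct5, a TRiC subunit, had 0, 186 and 391 CPM in skin and 521 to 590 CPM in SDLNs, with all skin libraries below but no call (log2 fold change -1.29, SE 2.07, edgeR adjusted p = 0.794).

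Among 8 other mitochondrial chaperones, 0 were called higher and 1 lower. Hscb, which serves iron-sulphur cluster assembly, was at 0 in skin and at 14.7 to 23.0 CPM in SDLNs, through which alone it entered the test (edgeR adjusted p = 0.00322). Hspa9, the mitochondrial HSP70, had 1, 992 and 4 counts in skin against 8434 to 27584 in SDLNs and was not called (log2 fold change -2.89, SE 2.27, adjusted p = 0.451), although it was called lower without skin library B (-9.19, adjusted p = 0.0054), where skin was left with 1 and 4 counts, and with limma voom on all 6 libraries (-6.95, adjusted p = 0.0125).

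Among 17 other genes of ER folding and the unfolded protein response, 1 was called higher and 2 lower, and 10 were over the floor in all 3 skin libraries. Dnajb9, an ER partner of Hspa5, had 404, 75.7 and 517 CPM in skin and 19.8, 34.0 and 16.1 CPM in SDLNs. Its log2 fold change was 3.88 (SE 1.11, edgeR adjusted p = 0.0302), and the call was lost in several alternatives, among them no filter and leaving out skin library C or any 1 of the SDLN libraries (2.85 to 4.17, adjusted p 0.0779 to 0.151 in these). Dnajb11 and Hyou1, which also work with Hspa5 and entered the test through SDLNs alone, had 0 to 1 and 0 to 5 counts in the skin libraries and 211 to 308 and 10.8 to 22.7 CPM in SDLNs (edgeR adjusted p = 0.00537 and 0.00611). Pdia3, a disulphide isomerase and the most abundant of the list, had 992 to 1575 CPM in skin and 1109 to 1352 CPM in SDLNs and was not called (log2 fold change 0.17, SE 0.42, adjusted p = 0.887).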

How the data were processed

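Paired-end RNA-seq of sorted Tregs gave 1 table of raw counts per Ensembl gene for 6 libraries. The authors trimmed reads with Trimmomatic 0.36, mapped them to GRCm38 with STAR 2.5.2b and deposited whole-number counts of reads in exons from featureCounts (Subread 1.5.2). The annotation release, strand setting and treatment of duplicate reads are not given in the sources used here, and PCR reads are not independent molecules, so intervals and floors cover counting error only. The 6 columns carry a tissue and a letter, which nothing links to the numbers of the sample titles, so each was used as a replicate of its tissue. The methods describe each sample as a pool of mice, and p-values measure the spread between these samples.

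Symbols came from GENCODE M21 (49056 of 49315 genes). Counts were tested with edgeR 4.0.16 (filterByExpr, TMM, robust quasi-likelihood F test, tissue as the only term) over 13572 genes, called at a Benjamini-Hochberg adjusted p under 0.05. The SE is the log2 fold change divided by the root of F. Alternatives used DESeq2 1.42.0, limma 3.58.1, other scalings and filters, libraries drawn down to 3748669 counts, each library left out and, added after seeing the data, a block on the column letters. CPM is per library total and RPKM per total and length of merged exons. The script was tested on simulated data. Promoter windows are RefSeq's and shared stretches were counted over GENCODE M21 transcripts. The 10 members and all gene lists were chosen with earlier results of these data known. All members were named, and of each companion list the called genes with the smallest adjusted p (at most 3 a direction) and the gene with the highest SDLN level.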

Additional observations from a re-analysis of the deposited data

How the results depend on the processing

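The letters of the count columns, which both tissues share, were tried as a replicate block after seeing the data. Same-lettered libraries deviated from their tissue means with correlations of 0.040 (A), -0.015 (B) and 0.17 (C) over 1623 genes, so the letters were not taken as pairs. Under this replicate block 3 members were called higher (Hspa8 with log2 fold change 0.53, adjusted p = 0.0396, beside Hspa1a and Hspa1b) and 0 lower, 0 companions higher and 7 lower, St13 turned to -0.84, Hspd1 and Hsph1 moved to -1.12 and -10.85 (neither called), and the calls of Dnaja1, Dnajb9, Chordc1, Stub1 and Hyou1 were lost (adjusted p 0.0524 to 0.414), while 61 of all genes were called higher and 5633 lower. The numbers of the sample titles could not be used, since no source joins them to the letters. The call of Hspa1a and Hspa1b stood wherever the filter kept them, which it does through skin alone, so this adds no support. The paralog ratios and the group ratio kept their direction in all of their alternatives but not their size: the HSP70 ratio ranged from 12.16 (drawn down) to 16.19 (0.1 count added), the HSP90 ratio from 0.65 to 1.88 and the group ratio from 1.07 to 1.78. Members called higher numbered 4 with DESeq2, 1 in libraries drawn down to the smallest total, where Hspa1b was not tested, 1 with the copies summed, by construction, and 0 with at least 10 counts in every library, a filter that removes both genes. Members called lower ranged from 0 to 1 with 1 library left out, the 1 being Hsph1 without skin library C, where it entered through SDLNs alone. Companions called higher numbered 4 with DESeq2, 1 with limma voom, 0 without a filter and 1 under the 10-count filter, and 0 to 4 with 1 library left out. Companions called lower numbered 25 with limma voom, 0 under the 10-count filter and 9 to 18 with 1 library left out. Of all genes, against 141 called higher and 6142 lower, DESeq2 called 404 higher, the test without a filter 77, the 10-count filter 77 higher and 13 lower, the libraries drawn down 4014 lower, and leaving out 1 library 71 to 324 higher. The cause was not tested except where named.

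The scaling moved all genes: the median log2 fold change of the 1623 genes over the floor everywhere was 0.28 with TMM, 0.38 with DESeq2 size factors, 0.31 with library totals, 0.16 with TMMwsp, so signs near 0 are not firm. It was 0.064 with limma voom, another test with sample weights. Hsp90ab1 (main value -0.06) turned to 0.0095 with DESeq2 size factors, 0.0096 with DESeq2 and 0.23 with limma voom. Hspa5 (0.035) turned to -0.085 with TMMwsp, -0.048 without a filter, -0.27 with at least 10 counts and -0.068 drawn down. Hspe1 (-0.0071) turned to 0.093 with DESeq2 size factors or DESeq2 and 0.070 with library totals. St13 (0.11) turned to -0.12 with library totals, -0.035 with TMMwsp, -2.71 with limma voom and -0.067 drawn down, and Pdia3 (0.17) to -0.18 with at least 10 counts. With 1 library left out, the log2 fold change ranged from -0.10 to 1.08 for Dnajb1, -0.93 to 0.21 for Hsp90ab1, -0.24 to 0.20 for Hspa5, -0.64 to 0.24 for Hspd1, -0.49 to 0.13 for Hspe1, -15.00 to 0.018 for Hsf1, -0.16 to 1.45 for Ubb, -1.23 to 0.49 for St13 and -0.22 to 0.31 for Pdia3.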
